A study of Mus musculus with 16 samples.

Results

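A set of 9 genes of bone morphogenetic protein (BMP) signaling was followed across the cell classes of the mouse kidney: the ligands Bmp2, Bmp4, Bmp6 and Bmp7, the secreted antagonist Grem1, the extracellular modulator Bmper, the inhibitory SMAD Smad6, and the target genes Id1 and Id3. They were picked by symbol, as 9 of the 31053 genes in the count matrices. Their raw UMIs (molecules counted once by their barcode) were summed in each library over the cells of each class and written as a rate per 1000000 UMIs of that class (CPM).

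The single-cell RNA-seq libraries came from kidneys of BTBR ob/ob mice, which lack functional leptin and develop diabetic nephropathy (DN mice), and of BTBR +/+ mice (control mice). Both sexes were sampled at 6 weeks and at 12 weeks of age, with 2 libraries of 1 mouse each in all 8 groups, 16 libraries in total. Per the study's methods, mice of both genotypes carried a Cre transgene active in podocytes and a membrane tdTomato/EGFP reporter. Both kidneys of a mouse were taken without the papilla, and glomeruli were enriched by removing proximal tubule on a Percoll gradient.

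BMPs are secreted ligands of the TGF-beta superfamily. They bind type I and type II serine/threonine kinase receptors, which phosphorylate SMAD1, SMAD5 and SMAD9, and these enter the nucleus with SMAD4 to induce genes such as Id1, Id3 and Smad6. Gremlins bind the ligands outside the cell and keep them from their receptors, Bmper can promote or restrain signaling depending on its level, and Smad6 closes a negative feedback loop inside the cell. In the kidney, Bmp7 is required for nephron formation, and Grem1 is needed for ureteric bud outgrowth and is known to be re-expressed in diabetic kidney.

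Totals were 83410397 to 125551519 UMIs in 12 libraries and 10510855 to 21728793 UMIs in the other 4, which are replicate 1 of each female group. These 4 libraries shared more cell barcodes with each other than with the 12, so they form a technical batch of their own, with both genotypes in it. After quality control 86633 cells were kept, of which 61010 fell into 16 classes named from marker genes and 25623 in clusters that carried no clear name. Doublets were screened for in the named classes only. Each class is called "-like" since its name rests on markers alone. The tubular classes were proximal tubule (PT), descending and ascending limb of the loop of Henle (dLOH, aLOH), distal convoluted tubule (DCT), connecting tubule (CNT), collecting duct principal cells (PC) and intercalated cells of type A and B (IC-A, IC-B), and EC stands for endothelial cells. They ranged from 16701 PT-like cells to 186 mitotic-like cells. The podocyte-like class held 649 control cells and 181 DN cells. Control female 6 weeks replicate 2, the deepest of the 16 libraries, stood apart from the other controls in several results, which are given with and without it.

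With both genotypes pooled, each of the 4 ligands had its highest mean in a different class, but arterial EC-like cells held high levels of Bmp2, Bmp4 and Bmp6. Bmp2 in mesangial-like cells was higher in DN mice, as given further on. There, all control libraries of 12 weeks and the control males of 6 weeks lay below 69.8 CPM, the pooled mean of smooth muscle and renin-like cells. Control females of 6 weeks lay above it. The top rank of mesangial-like cells thus rests in part on the DN libraries, and the order may differ among control mice. Over all libraries, Bmp2 was highest in mesangial-like cells, at 126 ± 82.8 CPM (SD, n = 16 libraries), followed by mitotic-like cells (81.2 ± 41.5, n = 6), arterial EC-like cells (80.4 ± 41.1, n = 14) and smooth muscle and renin-like cells (69.8 ± 18.4, n = 16). None of these neighbours in the order differed by more than the larger SD of the pair, whereas the next class, glomerular EC-like cells at 37.4 ± 21.1 CPM, was below smooth muscle and renin-like cells in 14 of 16 libraries. Bmp4 was highest in arterial EC-like cells, at 237 ± 117 CPM (n = 14), above mesangial-like cells (93.9 ± 26.6, n = 16) in all 14 libraries with both classes. Among nephron segments, 3 also carried Bmp4, with 39.0 ± 21.6 CPM in aLOH-like, 26.3 ± 8.79 in PT-like and 23.5 ± 12.0 in dLOH-like cells.

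Bmp6 was highest in 2 of the 3 endothelial classes, with 188 ± 93.9 CPM in glomerular EC-like cells and 171 ± 81.8 CPM in arterial EC-like cells, 2 levels that did not differ beyond their spread. PT-like cells held 24.7 ± 8.26 CPM of Bmp6, and the other endothelial class, peritubular and venous EC-like cells, held 14.0 ± 15.4 CPM (n = 11), below PT-like cells in 10 of 11 libraries though by less than the larger SD. Bmp7 was highest in podocyte-like cells, at 182 ± 34.5 CPM (n = 14), above PC-like cells (49.7 ± 13.9) in all 14 libraries with both. Below PC-like cells in the order of Bmp7 levels came 38.0 ± 11.7 CPM in CNT-like, 37.4 ± 11.6 in DCT-like, 35.0 ± 6.62 in IC-B-like and 33.5 ± 8.84 in aLOH-like cells, where no neighbour in this order differed beyond its spread. PT-like cells (18.9 ± 2.99) and IC-A-like cells (18.8 ± 5.26) followed, below aLOH-like cells by more than the larger SD.

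**Figure D1:**
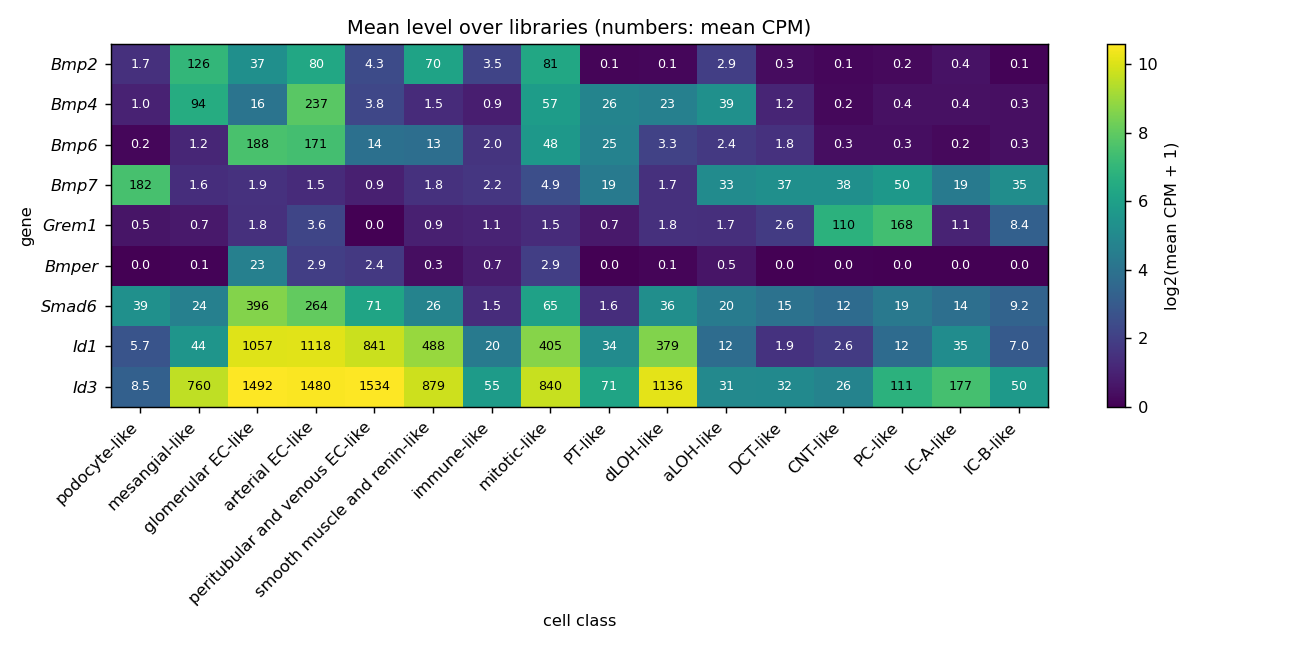
Mean level of the 9 genes (rows) in the 16 classes (columns) over the libraries with at least 10 cells of the class, with the mean CPM written in each cell and the colour giving log2(mean CPM + 1). Bmp7 stands out in podocyte-like, Grem1 in PC-like and CNT-like, and Id1 and Id3 have their highest means in the 3 endothelial classes.

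Of the secreted antagonists, Grem1 was highest in 2 neighbouring segments, PC-like cells (168 ± 196 CPM) and CNT-like cells (110 ± 115 CPM, both n = 16). IC-B-like cells came next with 8.44 ± 9.63 CPM, and the other 13 classes averaged below 4 CPM. The SDs are large since Grem1 was nearly silent in some libraries and high in others, which is described by group further on. Bmper was highest in glomerular EC-like cells, with 23.1 ± 15.8 CPM against 2.88 ± 5.38 CPM in mitotic-like cells, the next class.

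The intracellular members were highest in endothelial classes. Smad6 was highest in glomerular EC-like cells (396 ± 151 CPM), above arterial EC-like cells (264 ± 120 CPM) in all 14 libraries with both classes, although by less than the larger SD. Peritubular and venous EC-like cells held 70.6 ± 32.4 CPM of Smad6. Id1, an inhibitor of basic helix-loop-helix transcription factors, reached 1118 ± 402 CPM in arterial EC-like, 1057 ± 299 in glomerular EC-like and 841 ± 217 in peritubular and venous EC-like cells. Its relative Id3 reached 1480 ± 320, 1492 ± 234 and 1534 ± 273 CPM in the same 3 classes, which did not differ beyond their spread. Smooth muscle and renin-like cells held 488 ± 137 CPM of Id1 and 879 ± 171 CPM of Id3. Of the tubular classes, dLOH-like cells held the highest levels of both, with 379 ± 248 CPM of Id1 and 1136 ± 563 CPM of Id3. PC-like cells, where Grem1 was highest, held 12.1 CPM of Id1 and 111 CPM of Id3 on average.

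Likeness of pattern was measured by Pearson's r of mean log2 levels over the 16 classes, among 14173 genes, as a description with no test. Tcp11 (r = 0.988), Npy6r (0.980) and Hsd11b2 (0.973) were closest to Grem1, of which Hsd11b2 is the collecting duct enzyme that inactivates glucocorticoids. Id1 and Id3 were each among the 3 genes most like the other (r = 0.930). Alpl (0.939) and Fgfr3 (0.903) were closest to Bmp6, Serpini1 (0.975) and Mcam (0.974) to Bmp2, Meg3 (0.965) was among the 3 closest to Bmper, and Vegfc (0.811) among the 3 closest to Bmp4.

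At 12 weeks, the antagonist Grem1 was higher in PC-like and CNT-like cells of DN mice, Bmp2 was higher in mesangial-like cells, and the target genes Id1 and Id3 were lower in dLOH-like cells and Id1 in PC-like cells. At 6 weeks the call was of Bmp2 in mesangial-like cells. The comparison of DN with control mice was tested at each age with edgeR's quasi-likelihood test on the class sums, with Benjamini-Hochberg adjustment over all genes tested in the class and an adjusted p under 0.05 as the call. Not every gene passed the filter on low counts in every class: Smad6 and Id3 were tested in 14 of the 16 classes, Id1 in 12, Bmp7 in 8, Bmp4 in 6, Grem1, Bmp2 and Bmp6 in 4 each and Bmper in 1. At 12 weeks, 6 of the 64 tests of a gene in a class were called (9.38%), 3 higher and 3 lower in DN, against 0.401% of all 129590 tests of any gene. At 6 weeks, 1 of 67 was called (1.49%), against 0.0876% of all tests. The 9 genes were chosen with earlier results of these data known, so these shares are no test of the set. By class, all genes were called at 12 weeks in 2.96% of tests in mesangial-like, 0.58% in CNT-like, 0.433% in PC-like and 0.0677% in dLOH-like cells.

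Libraries of the same sex, age and replicate number deviated from their group means together, so the same comparison was also fitted with these 8 pairs as a block. In females the replicate number coincides with the technical batch, so there the block also takes up the batch. With the block, 16 of 64 tests were called at 12 weeks (7 higher and 9 lower, against 3.52% of all tests) and 10 of 67 at 6 weeks (7 higher and 3 lower, against 1.53% of all tests). By level alone, the DN and control libraries did not overlap in 16 of the 64 at 12 weeks (25%, against 4.13% of all genes) and in 1 of the 67 at 6 weeks (1.49%, against 2.04%).

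The sequence of the Grem1 promoter is given here since this gene had the largest fitted differences of the 9. Grem1 lies on chromosome 2 (chr2:113746164-113758646, minus strand, GRCm38). The 250 bases before its RefSeq start site (chr2:113758649-113758898, minus strand, GRCm38.p6) read 5′ to 3′ as follows, with matches on either strand to 2 letter strings bound by SMADs in capitals, GGCGCC and CAGAC.

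Grem1: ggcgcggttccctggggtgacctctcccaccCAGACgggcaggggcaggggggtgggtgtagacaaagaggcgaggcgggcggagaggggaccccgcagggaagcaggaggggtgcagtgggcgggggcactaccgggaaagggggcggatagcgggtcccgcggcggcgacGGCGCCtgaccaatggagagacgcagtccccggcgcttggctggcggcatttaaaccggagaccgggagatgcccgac

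The window held GGCGCC once, 78 bases before the start, and CAGAC once, 219 bases before it. Of 32851 promoter windows of this length, 9.59% held GGCGCC and 42.2% held CAGAC. Windows were at hand for 6 of the 9 genes (Grem1, Bmp4, Bmp6, Bmper, Smad6, Id3), and among these GGCGCC occurred in that of Grem1 alone, while CAGAC also occurred once in that of Bmp6 and 2 times in that of Id3. A match describes the letters only.

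In PC-like cells of control mice at 12 weeks, Grem1 stood at 0 and 3.78 CPM in the females and at 4.32 and 11 CPM in the males. The library at 0 counted no Grem1 in 2113509 UMIs, which allows up to 1.42 CPM for counting error alone. In DN mice of that age it stood at 272 and 452 CPM in the females and at 359 and 465 CPM in the males. All 4 DN libraries were above all 4 control libraries in both sexes, and the fitted log2 difference was 6.40 ± 1.23 (SE; edgeR adjusted p = 0.0332). With the replicate block it was 6.28 ± 0.50 (edgeR adjusted p = 1.11e-06). The unblocked call was lost without any 1 of the 8 libraries of 12 weeks or without control male 6 weeks replicate 2 (edgeR adjusted p 0.0520 to 0.119), while the difference stayed between 6.12 and 6.96.

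CNT-like cells showed the same order. Grem1 stood at 0 and 2.44 CPM in control females, 14.8 and 2.58 CPM in control males, 229 and 211 CPM in DN females, and 190 and 268 CPM in DN males at 12 weeks. The groups did not overlap in either sex, and the log2 difference was 5.51 ± 0.86 (edgeR adjusted p = 0.0024, n = 4 and 4). Under the other settings and without any 1 library this call was kept, with adjusted p up to 0.0298. The PC marker list summed to 6899 to 9644 CPM in CNT-like cells of control mice and to 7839 to 8886 CPM in those of DN mice at 12 weeks with all 8 markers detected, ranges that overlap between the genotypes. Its best known member Aqp2, the vasopressin-regulated water channel, was at 735 to 1980 CPM in control and at 2419 to 3189 CPM in DN libraries, and the part of this in the Grem1 result was not tested.

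**Figure D2:**
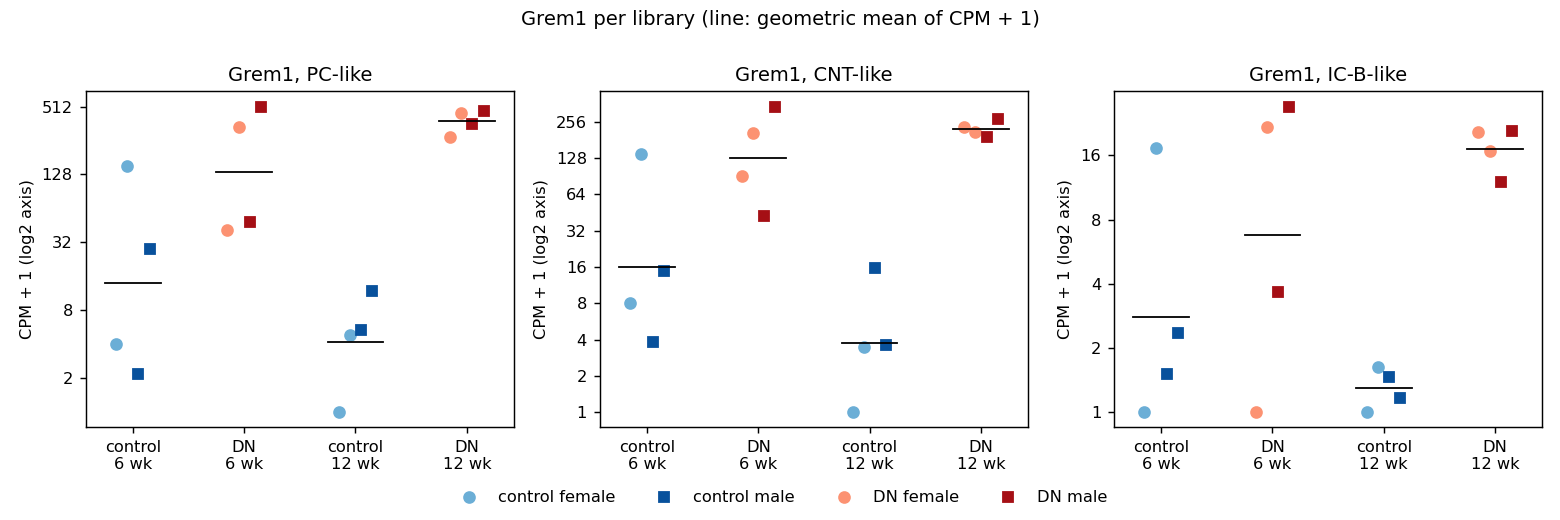
Grem1 in PC-like, CNT-like and IC-B-like cells, as CPM + 1 on a log2 axis, with 1 point per library (circles females, squares males) and a line at the geometric mean of each genotype and age. At 12 weeks all DN points lie above all control points in the 3 classes, whereas at 6 weeks the genotypes overlap in each class.

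At 6 weeks the spread was wide. In PC-like cells, control females stood at 2.99 and 150 CPM and control males at 1.18 and 27.0 CPM, and DN females stood at 40.1 and 336 CPM and DN males at 47.2 and 509 CPM. In CNT-like cells the controls ran from 2.85 to 137 CPM and the DN libraries from 41.1 to 341 CPM. In both classes replicate 2 was higher than replicate 1 in each sex and genotype, and control female 6 weeks replicate 2 overlapped the DN libraries. The log2 differences of 2.76 ± 1.10 in PC-like and 2.55 ± 0.77 in CNT-like cells were not called (edgeR adjusted p = 1.00 and 0.911). With the replicate block they were 2.98 ± 0.47 and 2.47 ± 0.48 and were called (edgeR adjusted p = 0.00375 and 0.0162). Without control female 6 weeks replicate 2, CNT-like cells gave 4.34 (edgeR adjusted p = 0.0182) and PC-like cells 4.64 (edgeR adjusted p = 0.152), with no block. Without DN male 6 weeks replicate 2 they gave 1.32 and 1.47.

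The share of PC-like cells with at least 1 Grem1 UMI was 41.0% to 66.7% in DN libraries and 0% to 3.48% in control libraries at 12 weeks. PT-like cells, which should lack the gene, had such a UMI in 0% to 2.32% of cells in DN and in 0% of cells in control libraries of that age. Median depth was 8211 UMIs in a PC-like and 8969 UMIs in a PT-like cell over all libraries. The difference was present within the clusters that make up the class. In the 3 large PC-like clusters, controls at 12 weeks ran from 0 to 26.8 CPM and DN libraries from 108 to 637 CPM, and each cluster held a like share of the class in both genotypes (37.3% and 37.5%, 33.7% and 34.5%, 26.9% and 26.9%).

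In IC-B-like cells Grem1 was far lower than in PC-like cells, with 0 to 0.632 CPM in control and 10.9 to 19.8 CPM in DN libraries at 12 weeks. The log2 difference of 5.33 ± 0.97 was not called (edgeR adjusted p = 0.0969) and was called with the replicate block (5.27 ± 0.54, edgeR adjusted p = 1.54e-05) and with a batch term (edgeR adjusted p = 0.0193). It was also called without control female 6 weeks replicate 2 (edgeR adjusted p = 0.0154), DN female 6 weeks replicate 1 (0.0434) or DN male 6 weeks replicate 2 (0.00526). Leaving out any other library gave no call, with an edgeR adjusted p up to 0.363. In these cells 5.25% to 5.81% of DN cells had a Grem1 UMI. For each 1000 Aqp2 UMIs, the DN libraries of 12 weeks counted 39.4 to 88.3 Grem1 UMIs in IC-B-like, 62.3 to 111 in CNT-like and 14.0 to 46.8 in PC-like cells. In other classes the ratio was 0 to 45.0 (PT-like), 20.0 to 111 (aLOH-like), 45.5 to 143 (DCT-like), 36.6 to 130 (glomerular EC-like) and 0 to 78.4 (IC-A-like), several of them from fewer than 10 Grem1 UMIs a library. Ranges over the libraries overlapped between IC-B-like cells and each of these classes. Within each DN library of 12 weeks, the IC-B-like ratio was above those of PC-like and PT-like cells and below that of CNT-like cells. Against aLOH-like, DCT-like, glomerular EC-like and IC-A-like cells it was above in some of these libraries and below in others. The part of free RNA in the IC-B-like signal was not tested.

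Bmp2, which encodes a ligand of SMAD1/5/9 signaling, was the gene called at both ages, in mesangial-like cells. At 6 weeks it stood at 120 and 112 CPM in control females, 28.4 and 62.5 CPM in control males, 260 and 289 CPM in DN females, and 98.7 and 184 CPM in DN males. At 12 weeks it stood at 47.4 and 57.4 CPM in control females, 47.9 and 40.4 CPM in control males, 102 and 226 CPM in DN females, and 145 and 199 CPM in DN males. Within each sex the DN libraries were above the controls at both ages, and at 12 weeks the genotypes did not overlap at all.

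The log2 difference in Bmp2 was 1.51 ± 0.27 at 6 weeks (edgeR adjusted p = 0.0223) and 1.86 ± 0.27 at 12 weeks (edgeR adjusted p = 0.000825). The call at 12 weeks was kept under every alternative and without any 1 library (adjusted p up to 0.0086). The call at 6 weeks depended on 3 libraries, and leaving out control male replicate 1 of that age gave an edgeR adjusted p of 0.165, DN female replicate 2 gave 0.0664 and DN male replicate 2 gave 0.103. The summed smooth muscle and renin marker list, with all 8 markers detected, stood in mesangial-like cells at 259 to 616 CPM in control and 766 to 1681 CPM in DN libraries at 12 weeks, with no overlap, and at 133 to 777 and 738 to 6292 CPM at 6 weeks. That list includes Acta2 and Tagln, which the study names among targets of the MRTF-SRF transcription pathway regulated in DN glomerular cell types. The part of the list in the Bmp2 result was not tested. The targets Id1 and Id3 in mesangial-like cells were at 41.1 ± 7.36 and 758 ± 169 CPM in control and at 45.8 ± 24.9 and 790 ± 175 CPM in DN mice at 12 weeks (n = 4 and 4), and neither was called (edgeR adjusted p = 0.943 and 0.952).

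In glomerular EC-like cells the block called 3 genes as higher in DN mice at 12 weeks, Bmper, Smad6 and Bmp6. None was called by the test with neither block nor batch term. A term for the technical batch brought all 3 under the threshold (edgeR adjusted p = 0.0392 for Bmper, 0.0357 for Smad6 and 0.00122 for Bmp6), and so did the larger batch on its own for Bmp6 (0.0443). Bmper stood at 10.6 and 9.76 CPM in control females, 11.2 and 25.6 CPM in control males, 33.5 and 30.5 CPM in DN females, and 35.2 and 68.1 CPM in DN males. Smad6 stood at 283 and 415 CPM in control females, 291 and 168 CPM in control males, 563 and 608 CPM in DN females, and 468 and 632 CPM in DN males. The DN and control libraries did not overlap for either gene. Bmp6 stood at 63.7 and 171 CPM in control females, 144 and 163 CPM in control males, 165 and 364 CPM in DN females, and 289 and 357 CPM in DN males, where 1 DN female overlapped the controls.

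The log2 differences were 1.61 ± 0.39 for Bmper, 0.99 ± 0.25 for Smad6 and 1.14 ± 0.34 for Bmp6 (edgeR adjusted p = 0.245, 0.276 and 0.463). With the block they were 1.58 ± 0.24, 0.97 ± 0.14 and 1.10 ± 0.12 and all 3 were called (edgeR adjusted p = 0.000299, 0.000212 and 6e-06). Over all classes the block called 3.52% of tests at this age. Without the block, 0 of the 9598 genes tested in glomerular EC-like cells were called. At 6 weeks the block called 1.53% of tests over all classes, the 3 genes among them. Their log2 differences were 0.91 ± 0.22, 0.61 ± 0.13 and 0.44 ± 0.11 (edgeR adjusted p = 0.0442, 0.0154 and 0.0428), and without the block none was called. In the fits with no block and 1 library left out, Bmper and Smad6 were lowest without DN male 6 weeks replicate 2, at 0.62 and 0.41. Bmp6 ran from 0.24 without DN female 6 weeks replicate 2 to 0.76 without control female 6 weeks replicate 2, with 0.27 without DN male 6 weeks replicate 2 and 0.28 without control female 6 weeks replicate 1. The class was small in some libraries, with 31 cells in control female 12 weeks replicate 2, 51 in DN female 12 weeks replicate 2 and 58 in DN male 12 weeks replicate 2. A list of 18 genes induced by tissue dissociation summed to 2722 to 3579 CPM in control and to 3854 to 6555 CPM in DN libraries of this class at 12 weeks, and its part in these differences was not tested. Id1 and Id3, the targets with the highest levels here, had log2 differences of 0.38 ± 0.20 and 0.10 ± 0.22 at 12 weeks and were not called (edgeR adjusted p = 1.00 for both).

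**Figure D3:**
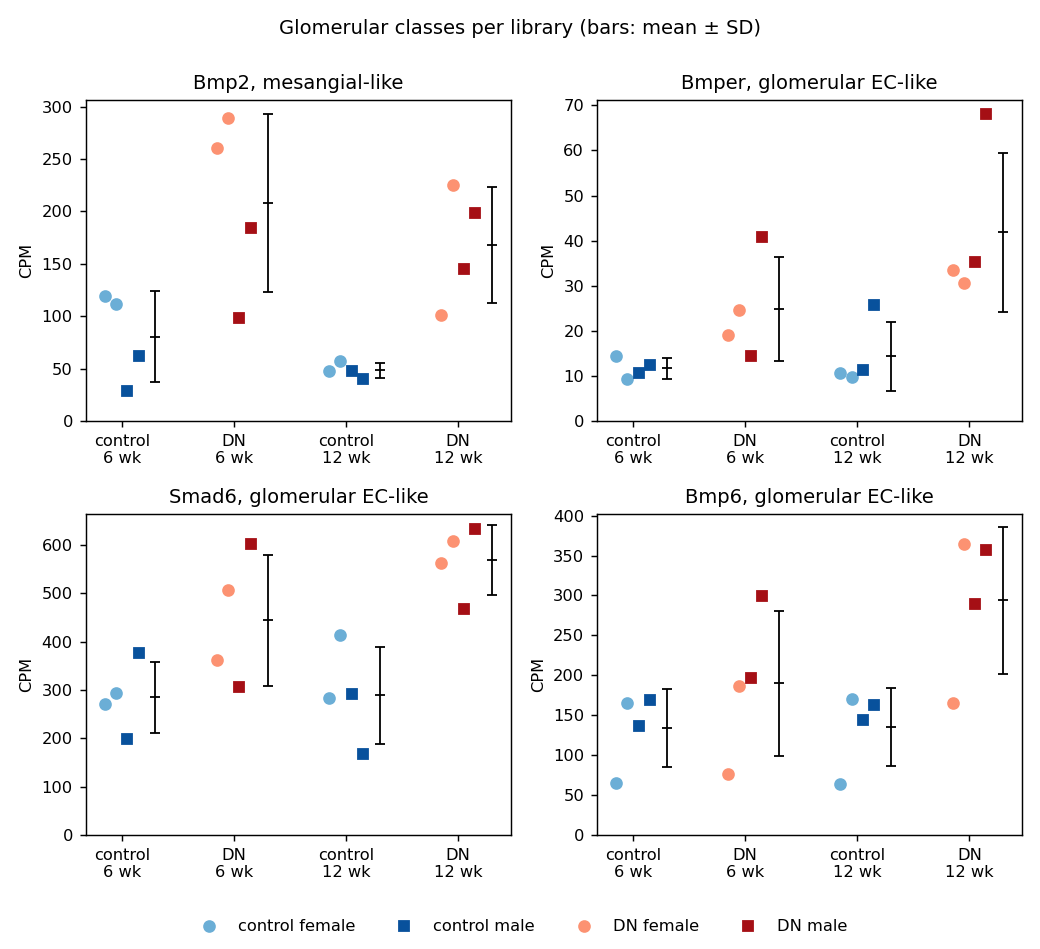
Bmp2 in mesangial-like cells and Bmper, Smad6 and Bmp6 in glomerular EC-like cells, in CPM, with 1 point per library (circles females, squares males) and the mean ± SD of each genotype and age beside the points (n = 4). At 12 weeks the DN points lie above the control points for Bmp2, Bmper and Smad6, and 1 DN female lies among the controls for Bmp6.

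Arterial endothelium and podocytes gave no calls. In arterial EC-like cells, Bmp6 was at 90.8 ± 13.3 CPM in control and 214 ± 89.3 CPM in DN mice at 12 weeks (n = 3 and 3), and Smad6 at 162 ± 49.2 and 366 ± 200 CPM, with all DN libraries above all control libraries. Their log2 differences of 0.90 ± 0.37 and 0.81 ± 0.36 were not called, with or without the block (edgeR adjusted p = 1.00 for both without it). The control libraries here were mostly male and the DN libraries mostly female. The raw means thus mix genotype with sex, for which the fit has a term. Non-overlap is also reached more easily with 3 libraries a genotype than with 4. Bmp7 in podocyte-like cells, its main site, was at 161 ± 44.3 CPM in control (n = 4) and 203 ± 27.0 CPM in DN mice (n = 3) at 12 weeks, a log2 difference of 0.37 ± 0.22 that was not called (edgeR adjusted p = 0.999). Bmp4 in arterial EC-like and mesangial-like cells had log2 differences of 0.69 ± 0.39 and 0.12 ± 0.23 at 12 weeks, neither called (edgeR adjusted p = 1.00 and 0.964).

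Of the targets, Id1 fell in PC-like and dLOH-like cells and Id3 in dLOH-like cells of DN mice at 12 weeks. Smad6, another gene this signaling induces, was called in neither class at that age, with or without the block. Over all 16 libraries Smad6 ran from 12.1 to 27.0 CPM in PC-like cells and from 18.4 to 68.5 CPM in dLOH-like cells. In PC-like cells, Id1 stood at 10.9 and 7.0 CPM in control females, 37.5 and 42.5 CPM in control males, 0.484 and 1.47 CPM in DN females, and 5.07 and 1.75 CPM in DN males. All DN libraries were below all control libraries, and the log2 difference was -3.29 ± 0.41 (edgeR adjusted p = 0.00183), a call kept under every alternative and without any 1 library (adjusted p up to 0.0135). The lowest DN value rests on 1 UMI. Among the 3 large PC-like clusters, the genotypes did not overlap in that with the highest control level. Id1 ran there from 11.5 to 68.6 CPM in control and from 0.978 to 6.11 CPM in DN libraries. They overlapped in the others, at 4.93 to 59.0 CPM in control and 0 to 9.76 CPM in DN libraries, and at 2.87 to 12.8 and 0 to 3.08 CPM.

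Id3 in PC-like cells stood at 103 and 117 CPM in control females, 234 and 236 CPM in control males, 66.8 and 37.4 CPM in DN females, and 71.5 and 44.1 CPM in DN males at 12 weeks. The groups did not overlap, and the log2 difference of -1.48 ± 0.32 was just above the threshold (edgeR adjusted p = 0.0587). It was called with the block (-1.58 ± 0.24, edgeR adjusted p = 0.00064), within the larger batch (edgeR adjusted p = 0.027) and without control female 6 weeks replicate 2 (0.0217), DN female 12 weeks replicate 1 (0.0201) or DN male 6 weeks replicate 2 (0.0392). With 1 library left out, the edgeR adjusted p of Id3 ran up to 0.259. At 6 weeks Id1 in PC-like cells had a log2 difference of -1.51 ± 0.36, called with the block (edgeR adjusted p = 0.31 without it and 0.00465 with it). The IC-B marker list in PC-like cells summed to 374 to 569 CPM in control and 817 to 1966 CPM in DN libraries at 12 weeks, with all 7 markers detected. IC-B-like cells held 7.0 CPM of Id1 and 50 CPM of Id3, and the part of this list in the PC-like results was not tested.

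In dLOH-like cells, the tubular class with the most Id1 and Id3, Id1 stood at 327 and 464 CPM in control females, 846 and 567 CPM in control males, 80.9 and 133 CPM in DN females, and 191 and 191 CPM in DN males at 12 weeks. Id3 stood at 1395 and 1339 CPM in control females, 2197 and 1634 CPM in control males, 460 and 436 CPM in DN females, and 599 and 820 CPM in DN males. Neither gene overlapped between the genotypes. The log2 differences were -1.84 ± 0.28 for Id1 (edgeR adjusted p = 0.0204) and -1.46 ± 0.26 for Id3 (edgeR adjusted p = 0.0371).

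With the block both dLOH-like differences were called at lower adjusted p (edgeR, 4.22e-05 and 0.000377). The unblocked call on Id1 was lost without control male 12 weeks replicate 1, DN female 12 weeks replicate 2 or either DN male of 12 weeks (edgeR adjusted p 0.0544 to 0.0994). That on Id3 was lost without any 1 of the 8 libraries of 12 weeks, either control male of 6 weeks or DN male 6 weeks replicate 1 (edgeR adjusted p 0.0507 to 0.216). Among these sums, 2 held few cells, 25 in control female 12 weeks replicate 2 and 26 in DN female 12 weeks replicate 2. Glomerular EC markers summed to 17.6 to 57.0 CPM in control and to 20.2 to 89.0 CPM in DN dLOH-like cells at 12 weeks. Those of peritubular and venous EC summed to 78.3 to 226 CPM in control and to 88.1 to 222 CPM in DN libraries. The part of endothelial RNA in the Id1 and Id3 results was not tested.

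**Figure D4:**
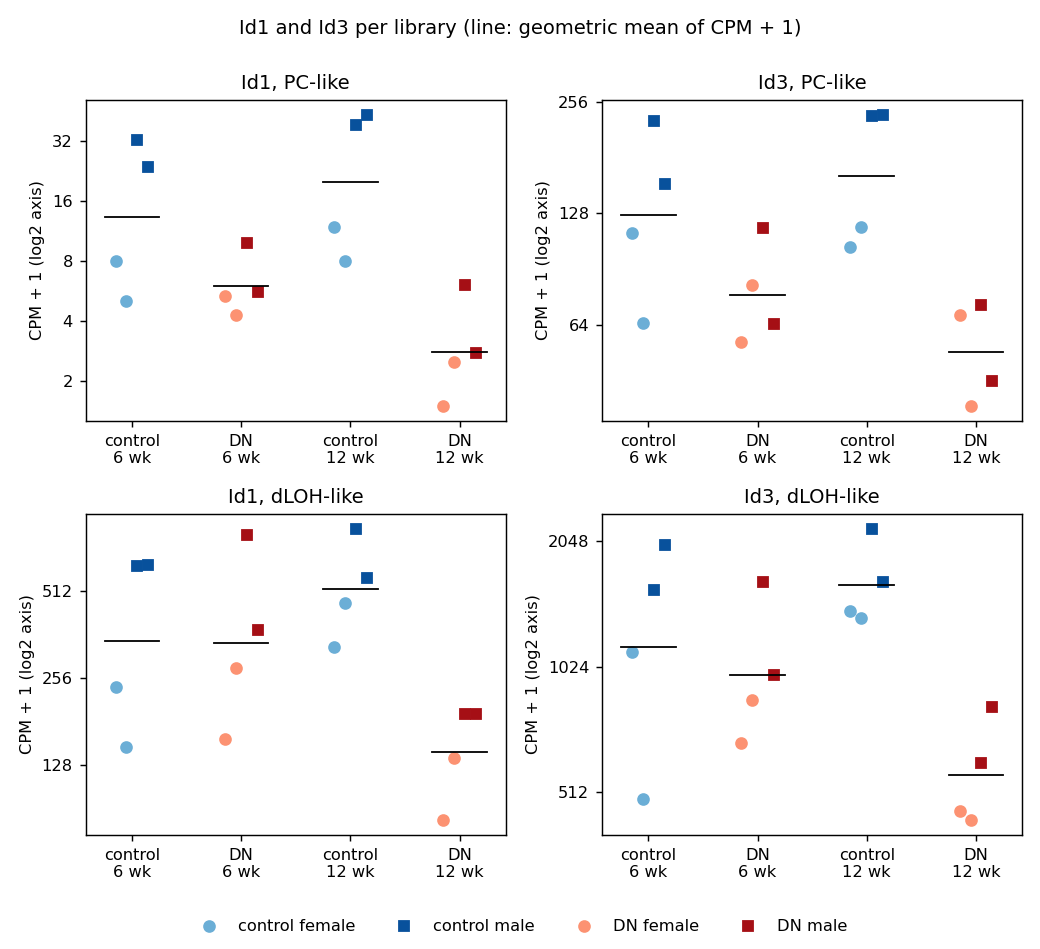
Id1 and Id3 in PC-like and dLOH-like cells, as CPM + 1 on a log2 axis, with 1 point per library (circles females, squares males) and a line at the geometric mean of each genotype and age. At 12 weeks all DN points lie below all control points in the 4 panels, and at 6 weeks the genotypes overlap in each panel.

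The DN effect on Id1 in dLOH-like cells was compared between the ages. At 6 weeks it was at 411 ± 256 CPM in control and 403 ± 282 CPM in DN mice (n = 4 and 4), and at 12 weeks at 551 ± 220 and 149 ± 52.9 CPM. The effect at 12 weeks minus that at 6 weeks was -1.89 ± 0.38 on the log2 scale, not called without the block (edgeR adjusted p = 0.766) and called with it (-1.86 ± 0.27, edgeR adjusted p = 0.0065). With the block 1 of the 64 tests was called, against 0.0363% of all tests. Without the block 0 of 64 were called (8 at an unadjusted p under 0.05, and 1 with DESeq2), and of all genes tested 0 were.

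Lower target levels were also seen in aLOH-like and PT-like cells, where they were called with the block and not without it. Id3 in aLOH-like cells was at 43.4 ± 17.3 CPM in control and 15.1 ± 5.64 CPM in DN mice at 12 weeks, a log2 difference of -1.51 ± 0.50 (edgeR adjusted p = 0.574, and 0.000197 with the block). At 6 weeks Id3 in aLOH-like cells had a log2 difference of -0.998 ± 0.493 (edgeR adjusted p = 1.00, and 0.0116 with the block). There control male replicate 2 stood at 114 CPM against 15.9 to 19.4 CPM in the other controls, and the unblocked difference was -0.23 without it, -0.62 without DN male replicate 1 and -1.58 without DN male replicate 2 of that age. Id1 in PT-like cells was at 60.9 ± 16.4 and 23.1 ± 9.04 CPM, with no overlap and a log2 difference of -1.44 ± 0.42 (edgeR adjusted p = 0.294, and 0.0411 with the block). In CNT-like cells Id3 had a log2 difference of -0.59 ± 0.35 (edgeR adjusted p = 0.822, and 0.0337 with the block). Leaving out 1 library moved it from -0.86 to -0.35, with the smallest sizes without control female 12 weeks replicate 1 or DN female 12 weeks replicate 2. Over all libraries, the largest PT-like cluster held 34.9% of control and 25.5% of DN cells of its class. The smaller CNT-like cluster held 8.59% and 0.16% of its class. The part of these shares in the PT-like and CNT-like results was not tested. Id3 in IC-B-like cells went the other way at 6 weeks, by 0.54 ± 0.23 (edgeR adjusted p = 1.00, and 0.0197 with the block), and by 0.33 to 0.78 with 1 library left out, least without control male 6 weeks replicate 2.

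Of the ligands, Bmp4 had lower levels in aLOH-like cells of DN mice. At 6 weeks it averaged 53.9 ± 23.9 CPM in control and 24.9 ± 9.64 CPM in DN mice (n = 4 and 4). At 12 weeks it stood at 32.2 and 73.7 CPM in control females, 42.7 and 62.3 CPM in control males, 12.7 and 45.1 CPM in DN females, and 14.8 and 25.4 CPM in DN males. Replicate 1, the shallow female library, was the lower of each female pair, and the genotypes overlapped in females but not in males. The log2 differences of -1.03 ± 0.32 at 6 weeks and -1.17 ± 0.34 at 12 weeks were not called (edgeR adjusted p = 0.933 and 0.436). They were called with the block (-1.11 ± 0.13 and -1.20 ± 0.15, edgeR adjusted p = 0.000202 and 0.000271) and with a term for the technical batch (edgeR adjusted p = 0.00866 and 0.00415). Bmp7 in PC-like cells was at 64 ± 6.91 CPM in control and 42.8 ± 7.24 CPM in DN mice at 12 weeks, with no overlap, and was called with the block (-0.49 ± 0.11, edgeR adjusted p = 0.013, and 0.632 without it).

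**Figure D5:**
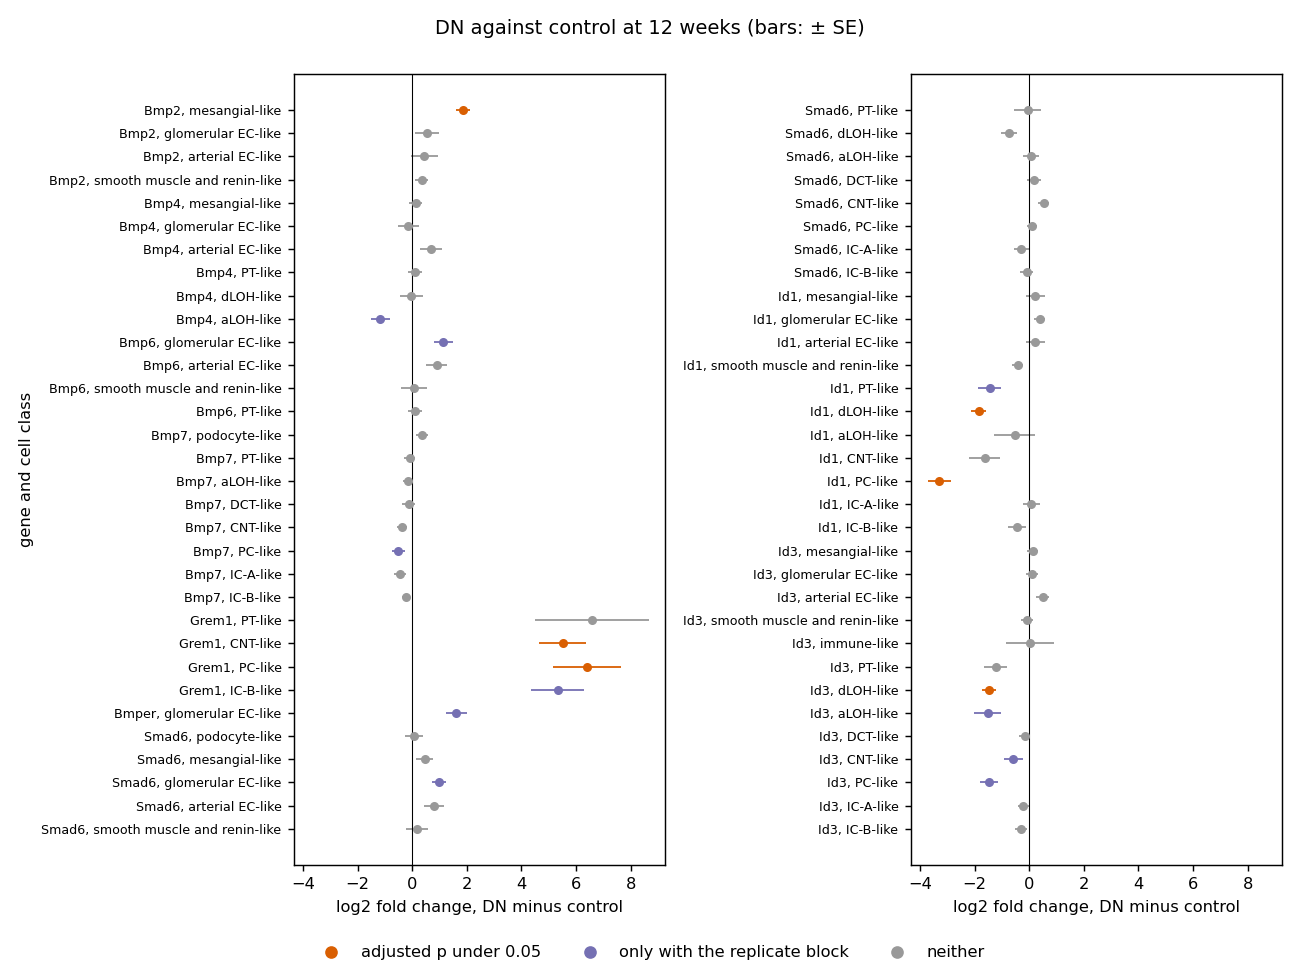
All 64 tests of a gene in a class at 12 weeks, as the log2 fold change of DN minus control mice with its SE, ordered by gene and coloured by whether the test was called with no block, with the replicate block but not without it, or by neither. The Grem1 tests lie far to the right, and without the block the calls to the right are of Grem1 in PC-like and CNT-like cells and Bmp2 in mesangial-like cells and those to the left of Id1 and Id3.

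The 7 calls without the block (6 at 12 weeks and 1 at 6 weeks) were also made in the 12 libraries of the larger batch on their own, with edgeR adjusted p of 0.00104 to 0.0423. The smaller batch held 1 library in each female group and gave no value of its own.

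Sex differences were tested over both genotypes and ages, and 4 of 64 tests were called (6.25%, 1 higher and 3 lower in females, against 1.25% of all tests). By class, all genes were called for sex in 10.2% of tests in PT-like, 0.655% in dLOH-like, 0.543% in IC-B-like and 0.204% in PC-like cells. Id1 in PC-like cells ran from 0.484 through a median of 4.17 to 10.9 CPM in the 8 females and from 1.75 through 15.7 to 42.5 CPM in the 8 males, a log2 difference of -1.96 ± 0.28 (edgeR adjusted p = 0.0037). Within the larger batch, which holds 4 of the 8 females and all males, it was -2.19 (edgeR adjusted p = 0.0171). Id1 in dLOH-like cells ran from 80.9 through 196 to 464 CPM in females and from 191 through 598 to 846 CPM in males (-1.16 ± 0.19, edgeR adjusted p = 0.00738), but was not called within the larger batch (-1.08, edgeR adjusted p = 0.0936).

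Id3 in IC-B-like cells ran from 20.2 through 35.2 to 52.1 CPM in females and from 35.4 through 65.8 to 85.9 CPM in males (-0.80 ± 0.16, edgeR adjusted p = 0.0298), and was lost within the larger batch (-0.71, edgeR adjusted p = 0.0619) and with a batch term (-0.71, edgeR adjusted p = 0.0653). It was also lost without any 1 of 9 libraries (edgeR adjusted p 0.0522 to 0.0788), which were both control males of 12 weeks, replicate 1 of the other 3 male groups and of both female groups of 12 weeks, and replicate 2 of both female groups of 6 weeks. Smad6 in PT-like cells was higher in females, at 2.33 ± 1.25 against 0.902 ± 0.372 CPM (1.29 ± 0.35, edgeR adjusted p = 0.0295), and was also called within the larger batch (1.22, edgeR adjusted p = 0.0135). That result rests on 115 UMIs in females and 133 in males, was lost with no doublet removal (edgeR adjusted p = 0.0508) and was lost without any 1 of 9 libraries (edgeR adjusted p 0.0528 to 0.111), which were all 4 control males, control female 6 weeks replicate 1 and replicate 2, control female 12 weeks replicate 1, DN female 6 weeks replicate 2 and DN male 6 weeks replicate 2. Sex was measured in part across batches, since the smaller batch holds no male.

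No age difference was called in either genotype. Among control mice 0 of 64 tests were called by edgeR (10 at an unadjusted p under 0.05, and 0 with DESeq2), and among DN mice 0 of 64 (8 at an unadjusted p under 0.05, and 1 with DESeq2), and of all genes 0 were called in both.

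Other genes of the pathway were taken from 5 lists (further ligands, antagonists and modulators, receptors and co-receptors, SMADs and their ubiquitin ligases, and further targets) with 57 genes, of which 49 were tested in some class. These lists too were chosen with earlier results of these data known, so their shares are no test of the lists. At 12 weeks, 6 of 353 tests were higher and 4 lower in DN mice (2.83%, against 0.401% of all tests, median log2 difference -0.01 against 0.00 over all tests). With the block 25 were higher and 23 lower, against 2.08% and 1.43% of all tests. At 6 weeks, 3 of 366 were higher and 0 lower (0.82%, against 0.0876% of all tests), and 14 and 6 with the block (0.929% and 0.602% of all tests).

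The further antagonists and modulators gave 3 higher and 2 lower of 99 tests at 12 weeks (5.05%, against 0.401% of all tests and 2.96% in mesangial-like cells, where 3 of the 5 calls lie). Nbl1, a DAN-family antagonist, was higher in mesangial-like cells at 6 weeks (2.03 ± 0.39) and at 12 weeks (2.74 ± 0.37, 9.75 ± 4.64 CPM in control and 67.6 ± 24.2 CPM in DN mice; edgeR adjusted p = 0.0308 and 0.000666). The follistatin-like Fstl1 was higher in mesangial-like cells (0.98 ± 0.19, edgeR adjusted p = 0.00593) and lower in PC-like cells (-1.86 ± 0.29, edgeR adjusted p = 0.00624) at 12 weeks. At 6 weeks, 3 of 103 tests of this list were higher and 0 lower (2.91%, against 0.0876% of all tests and 0.291% in mesangial-like and 0.05% in DCT-like cells), Nbl1 and Fstl1 in mesangial-like cells (Fstl1 1.01 ± 0.19, edgeR adjusted p = 0.0271) and Fstl3 in DCT-like cells (1.60 ± 0.29, edgeR adjusted p = 0.0387).

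The further ligands gave 3 higher and 0 lower of 28 tests at 12 weeks (10.7%, against 0.401% of all tests, and 2.96% in mesangial-like, 0.433% in PC-like and 0.301% in PT-like cells, where these calls lie). Bmp3, a ligand that counteracts other BMPs, stood in PC-like cells at 0.378 to 0.946 CPM in control and at 38.6 to 53.8 CPM in DN libraries at 12 weeks, the same class and age as Grem1 (6.16 ± 0.80, edgeR adjusted p = 0.00209). Gdf15, a stress-induced member of the superfamily, was higher in PT-like cells (1.29 ± 0.25, edgeR adjusted p = 0.0396). Bmp1, a metalloprotease despite its name, was higher in mesangial-like cells (0.83 ± 0.22, edgeR adjusted p = 0.0427). Of the receptors and co-receptors, 1 of 107 tests passed (0.935%, against 0.401% of all tests and 2.96% in mesangial-like cells, where it lies). It was the co-receptor Rgma, which was lower in mesangial-like cells at 12 weeks (-1.09 ± 0.22, edgeR adjusted p = 0.00757). The decoy receptor Bambi, counted above with the antagonists and modulators, was also lower there (-0.74 ± 0.18, edgeR adjusted p = 0.026). None of 81 tests of SMADs and their ubiquitin ligases passed at 12 weeks (2 higher and 3 lower with the block, against 2.08% and 1.43% of all tests). Of the further targets, 1 of 38 tests passed (2.63%, against 0.401% of all tests and 0.0677% in dLOH-like cells), Id2, which was lower in dLOH-like cells beside Id1 and Id3, at 495 ± 57.6 CPM in control and 157 ± 36.6 CPM in DN mice (-1.62 ± 0.27, edgeR adjusted p = 0.0316), and 8 of the 38 were lower with the block, against 1.43% of all tests.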

How the data were processed

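The submitters' processing notes and the study's methods name Cell Ranger 3.0.2 with its mm10 3.0.0 reference; the deposited values are raw UMI counts per gene and cell in 16 libraries of 1 mouse each. Cells with 200 to 7000 genes and at most 50% mitochondrial UMIs were kept (20% in non-tubular classes). The 94436 cells were clustered on 2000 variable genes that left out the 9 genes and all lists (30 principal components, Harmony over libraries, Leiden resolution 1.0 with leidenalg 0.10.2) and clusters were named from markers. In named classes, tubular cells with a non-tubular marker and the reverse were removed as doublets (7007, 7.42% of the 94436 cells). Cells in clusters without a clear name were not screened for doublets or by the 20% limit. Each library's UMIs were added up by class, and classes with 10 or more cells in a library entered edgeR 4.0.16 (quasi-likelihood, TMM, filterByExpr, R 4.3.3) with DN effects at each age and sex within age as terms, with Benjamini-Hochberg adjustment per class. DESeq2 1.42.0 was an alternative. The code was tested on simulated data.

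Libraries of equal sex, age and replicate number deviated together (8 pairs, r 0.185 to 0.760 over classes), so the fit with these pairs as a block is given where it changes a call. The pairing comes from the replicate numbers in the labels and this check, and in females it coincides with the technical batch. Which chemistry each library had is not given in the sources used here, and the 4 shallow libraries were set apart by depth and shared barcodes: at most 55 barcodes were shared by 2 libraries of the same batch and at most 3 by libraries of different batches. Each library is a different mouse, so p-values with neither block nor batch term measure the spread between mice, which in females includes the technical batch. With the block they measure the spread of the differences within pairs. Intervals and limits for counts of 0 (3 counts) cover counting error only. The genes named are the 9 members, genes called in the 5 pathway lists and the 3 genes most like each member; members and lists were chosen with earlier results of these data known. A marker used for doublets and a result in the lists are not reported here. Alternatives were other normalization, filters, cell cutoffs, clustering resolution, a batch term, the larger batch alone, no doublet removal and leaving out each library. Promoter sequences were taken from RefSeq (GRCm38.p6) and gene positions from GENCODE M21 (GRCm38).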

Additional observations from a re-analysis of the deposited data

Results flagged for a closer look

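Among 72 sets of 4 libraries (a gene in a class, genotype and age), 8 held a library far from the other 3 by Dixon's criterion, which chance passes in about 1 of 20 sets. Control female 6 weeks replicate 2 was the high one for Grem1 in CNT-like cells, at 137 CPM against 2.85 to 13.8 CPM in the other controls, and in IC-B-like cells, at 16.4 CPM against 0 to 1.35 CPM. Bmper in glomerular EC-like cells was high in control male 12 weeks replicate 2, at 25.6 CPM against 9.76 to 11.2 CPM, and in DN male 12 weeks replicate 2, at 68.1 CPM against 30.5 to 35.2 CPM. Bmp4 in aLOH-like cells was low in control female 6 weeks replicate 1, at 18.4 CPM against 61.0 to 69.3 CPM. Id1 in PT-like cells was high in control female 12 weeks replicate 2, at 85.2 CPM against 49.8 to 55.8 CPM. Id3 was high in IC-B-like cells of control male 6 weeks replicate 1, at 64.8 CPM against 30.2 to 35.4 CPM, and in aLOH-like cells of control male 6 weeks replicate 2, at 114 CPM against 15.9 to 19.4 CPM.

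The DN effect on Id1 in dLOH-like cells differed between 12 and 6 weeks by -1.86 on the log2 scale with the replicate block (edgeR adjusted p = 0.0065), and was not called without it.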

How the results depend on the processing

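Of the 64 tests of the 9 genes at 12 weeks 6 were called, and 10 with DESeq2 (0.806% of all tests called), 12 with a batch term (1.01%), 16 with the replicate block (3.52%) and 18 of 123 with no filter on low counts (0.984%). At 6 weeks the 1 call of 67 became 2 with a batch term (0.312% of all tests), 7 of 131 with no filter (0.52%) and 10 with the block (1.53%). The difference between the ages went from 0 calls to 1 with DESeq2 (0.000772% of all tests), 5 of 123 with no filter (0.0944%) and 1 with the block (0.0363%). The 12 against 6 weeks comparison went from 0 calls to 5 with no filter in control mice (0.214%), and to 1 with DESeq2 (0.0116%) and 2 with no filter (0.182%) in DN mice. The sex comparison went from 4 calls to 11 with DESeq2 (3.04%) and 16 of 123 with no filter (2.56%). The block could not be fitted for age or sex, since a pair holds 1 sex and 1 age. Leaving out 1 library gave 3 to 8 calls at 12 weeks, 0 to 2 at 6 weeks and 2 to 5 for sex, and 0 to 0 for the other comparisons. Of the single results under these alternatives, 698 kept their direction and side of the threshold, 55 gained a call, 49 lost one and 0 changed direction. The block added calls in the paragraphs above and took none of the 7 away. In classes of few cells, and for genes of a few UMIs per library, depth limits what could be detected. The cause of these shifts was not tested.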

Other observations

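Some of the 25623 cells in clusters without a clear name also held these genes, and no comparison was made in them. These cells were not screened for doublets. Of the 4 such clusters of over 20 cells that scored first as intercalated cells by markers, 1 of 1035 cells (IC-A first, PC second) held Grem1 at 94.6 CPM over all libraries, 1 of 426 cells (IC-B first, PC second) at 124 CPM, 1 of 901 cells (IC-A first, CNT second) at 47.2 CPM, and 1 of 179 cells (IC-B first, IC-A second) at 2.84 CPM. Median depth of these 4 clusters, in this order, was 26736, 30069.5, 30384 and 35095 UMIs per cell. It was 15471 in IC-A-like and 10946.5 in IC-B-like cells, and 33305 in 1 named IC-B-like cluster. The part of doublets in these Grem1 levels was not tested. A cluster of 2117 cells (arterial EC first) held 856 CPM of Id1, 736 CPM of Id3 and 50.2 CPM of Smad6. A cluster of 159 cells (immune first, erythrocyte second) held 268 CPM of Smad6, 159 CPM of Bmp6, 709 CPM of Id1 and 1016 CPM of Id3. The largest unnamed cluster, with 10572 cells, had a median of 597 UMIs per cell.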
